A study of Mus musculus with 12 samples.

Results

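The fragments of the 3 cytosolic tRNAs that carry aromatic amino acids, tRNA-Tyr-GTA, tRNA-Phe-GAA and tRNA-Trp-CCA, were described in small RNA sequencing libraries of mouse sperm and of a mouse Sertoli cell line. They were chosen by name, though with earlier results of these data known, as every mature tRNA entry for tyrosine, phenylalanine or tryptophan (mature-tRNA-Tyr-GTA, mature-tRNA-Phe-GAA and mature-tRNA-Trp-CCA in the annotation), and they make up 3 of the 51 isoacceptors (tRNAs that share an amino acid and an anticodon) listed. Each isoacceptor was split into 3 classes of tRNA-derived fragments (tRFs), which gave 9 of the 153 tRFs listed. A tRF5 was annotated at the 5′ end of the tRNA, a tRF3 at its 3′ end with or without the CCA tail, and other fragments were the remaining reads.

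The 12 libraries came from sperm and cells collected to ask how diet, an AMPK inhibitor and angiogenin bear on tRNA fragments. Sperm were mature epididymal sperm of C57BL6/J males that ate a control diet (CD, 16% of kcal from fat) or a high-fat diet (HFD) for 7 weeks from 4 weeks of age, with 3 libraries per diet and 3 sperm samples pooled in each. The labels give this starting age and 69% of kcal from fat for the HFD, whereas the study's methods give a lower fat content. Those methods name mice supplied at 4 weeks of age, and a figure legend gives a later age for the start of the diets. TM4 cells, an immortalized mouse Sertoli line, were untreated (Ctrl), treated for 12 h with 10 µM Compound C (CC), an inhibitor of the energy-sensing kinase AMPK, or made to overexpress the full-length coding sequence of Ang (Ang OE), with 2 libraries each. Ang encodes angiogenin, a ribonuclease that cuts tRNAs. Both the CC and the Ang OE libraries were set against the same Ctrl libraries, and no library with an empty vector was analysed here. Nothing in the labels says that TM4 replicates were separate cultures, so p-values for these cells measure the spread between libraries, which may be technical. In bulk libraries, fewer cells of a type and less RNA per cell cannot be told apart.

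tRNAs bring amino acids to the ribosome, and the 3 bases CCA at their 3′ end, where the amino acid is attached, are added by an enzyme after transcription rather than encoded in the gene. The anticodon loops of the aromatic tRNAs are unusual in their chemistry. In tRNA-Tyr the first anticodon base carries a galactosylated queuosine, in tRNA-Phe a bulky wybutosine-type base follows the anticodon, and in tRNA-Phe and tRNA-Trp the loop is methylated on ribose by FTSJ1. The genes for tRNA-Tyr also carry an intron beside the anticodon that has to be spliced out. In mouse, tRNA-Phe is further known as the primer that IAP retrotransposons use to start reverse transcription.

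A mature sequence shared by the most genes of each aromatic tRNA in the GRCm39 genome is shown with its anticodon in capitals, beside that of a close relative of tRNA-Phe that shares its reads, tRNA-Ser-GGA. They are written without the CCA tail and, for tRNA-Tyr, without the intron.
tRNA-Tyr-GTA (chr13:23609816-23609904, minus strand): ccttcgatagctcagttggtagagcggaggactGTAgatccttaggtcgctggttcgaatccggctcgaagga
tRNA-Phe-GAA (chr10:80084798-80084870, minus strand): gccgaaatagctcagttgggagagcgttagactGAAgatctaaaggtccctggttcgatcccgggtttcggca
tRNA-Trp-CCA (chr11:68932652-68932723, plus strand): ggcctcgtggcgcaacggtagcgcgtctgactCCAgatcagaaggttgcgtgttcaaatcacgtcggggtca
tRNA-Ser-GGA (chr11:100428984-100429056, plus strand): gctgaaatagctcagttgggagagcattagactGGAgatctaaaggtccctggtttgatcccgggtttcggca
The tRNA-Tyr gene at the position above is shown with its intron of 16 bases in capitals.
tRNA-Tyr-GTA gene: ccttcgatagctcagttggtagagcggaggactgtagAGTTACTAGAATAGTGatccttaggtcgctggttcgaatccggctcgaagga

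Genes were found by their cloverleaf and kept where RefSeq (GRCm38.p6) lists a tRNA gene of the same anticodon, chromosome and length. This kept 10 of 11 candidates for tRNA-Tyr, 7 of 8 for tRNA-Phe and 8 of 8 for tRNA-Trp. The 10 tRNA-Tyr genes lie on 4 chromosomes, carry introns of 13 to 20 bases and give 5 distinct mature sequences. By GENCODE annotation, 6 of them are intergenic, 2 lie in introns and 2 in exons of lncRNAs. Of the 7 tRNA-Phe genes, with 3 distinct mature sequences, 5 are intergenic and 2 intronic. Of the 8 tRNA-Trp genes, with 6 distinct mature sequences, 5 are intergenic and 3 intronic. The mature tRNAs are 72 or 73 bases long, so their levels can be compared without a correction for length. No stretch of 15 bases is shared among the 3 aromatic tRNAs, whereas tRNA-Phe shares 20 of its 81 stretches with tRNA-Ser-GGA.

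Libraries held 31710445 to 64038150 clean reads. Values are given as reads-per-million of clean reads without rRNA (RPM). Mature tRNAs took 10.8 to 16.6% of those reads in sperm and 2.27 to 4.96% in TM4 cells, with the highest values among TM4 libraries in Ang OE (3.68 and 4.96%). Among miRNA markers of cell types, those of testis germ cells were all detected in sperm (5 of 5, summed level 1381 to 3804 RPM). Those of epithelium (5 of 5) summed to 4480 to 7580 RPM in sperm and, with at least 2 of 5 detected, to 1.55 RPM or less in TM4 cells. Markers of red blood cells (at least 2 of 3 detected) summed to 649 to 1018 RPM in CD and 1107 to 1300 RPM in HFD, and those of white blood cells (3 of 3) to 279 to 333 RPM in CD and 419 to 712 RPM in HFD, so both were higher in every HFD library. Smooth muscle markers (4 of 4) summed to 16171 to 26322 RPM in CD and 15352 to 29715 RPM in HFD. In TM4 cells, 3 or more of those 4 were detected, at 61711 to 79792 RPM in Ang OE and 29771 to 42667 RPM in the other 4 libraries. The testis germ list (at least 3 of 5) summed to 1144 to 1289 RPM in Ang OE and to 509 to 570 RPM in Ctrl and CC. The part of these cell types and markers in the differences described here was not tested. The Sertoli identity of TM4 cells was not checked here.

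The aromatic tRNAs differed between sperm and TM4 cells in which of them was most abundant. Over all reads, the order from high to low in every sperm library was tRNA-Trp, tRNA-Tyr, tRNA-Phe, and in Ctrl and CC cells it was tRNA-Phe, tRNA-Tyr, tRNA-Trp. tRNA-Trp total reads stood at 550, 839 and 576 RPM in CD, 707, 996 and 1006 RPM in HFD, 58.9 and 58.2 RPM in Ctrl, 54.7 and 82.0 RPM in CC and 43.7 and 50.4 RPM in Ang OE. tRNA-Tyr total reads were 448, 673 and 308 RPM in CD, 665, 805 and 622 RPM in HFD, 214.9 and 214.5 RPM in Ctrl, 199 and 324 RPM in CC and 271 and 413 RPM in Ang OE. tRNA-Phe total reads were 127, 137 and 99.6 RPM in CD, 192, 162 and 225 RPM in HFD, 498 and 601 RPM in Ctrl, 553 and 910 RPM in CC and 177 and 288 RPM in Ang OE. These orders also count reads that could not be placed on the genome. Only 22.8 to 55.6% of tRNA-Trp reads matched it in sperm, against 93.1 to 96.6% of tRNA-Tyr and all tRNA-Phe reads. On matched reads alone, an alternative added after the data were seen, tRNA-Tyr lay above tRNA-Trp in 6 of 6 sperm libraries (288 to 771 RPM against 161 to 559 RPM), and tRNA-Trp above tRNA-Phe in 5 of 6. Within each diet the ranges of tRNA-Trp and tRNA-Tyr overlapped over all reads, while tRNA-Phe lay below both in all sperm libraries. In Ang OE, tRNA-Tyr exceeded tRNA-Phe in both libraries. By median level among the 51 isoacceptors, tRNA-Trp was 17th from the top in sperm and 40th in TM4 cells, tRNA-Tyr 19th and 22nd, and tRNA-Phe 39th and 14th. Sperm and TM4 libraries were different preparations of different material, so tissue and preparation cannot be told apart.

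**Figure D1:**
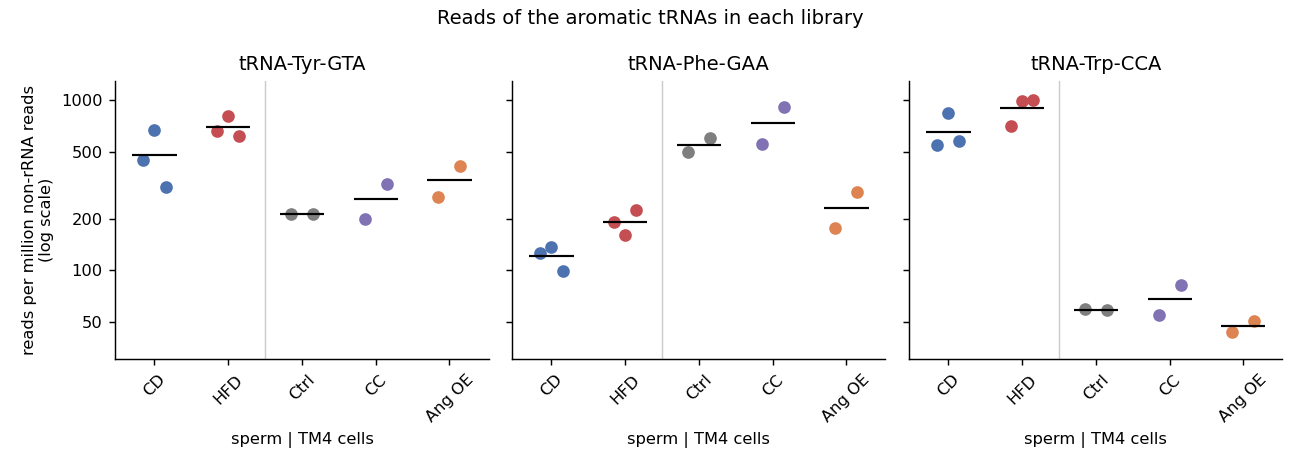
Total reads of each aromatic tRNA in the 12 libraries, in RPM on a log axis. Points are libraries and lines are group means. tRNA-Trp lies between 550 and 1006 RPM in sperm and between 43.7 and 82.0 RPM in TM4 cells, and tRNA-Phe is lowest among TM4 groups in Ang OE (177 and 288 RPM).

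The classes also differed. All reads were 15 to 45 bases long, shorter than a whole tRNA. In sperm, other fragments made up 93.0 to 95.4% of tRNA-Tyr reads, 82.8 to 89.7% of tRNA-Trp reads and 56.4 to 70.5% of tRNA-Phe reads. The tRF3 took most of the remainder, with 3.62 to 6.11% of tRNA-Tyr, 8.38 to 15.3% of tRNA-Trp and 29.5 to 43.5% of tRNA-Phe reads. In TM4 cells the tRF3 was the larger class for tRNA-Trp (82.5 to 88.4%) and tRNA-Phe (61.6 to 82.6%) in every library. For tRNA-Tyr it took 51.9 to 66.7% in Ctrl and CC and 40.6 and 29.9% in Ang OE.

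The tRF5 of all 3 was scarce. In sperm it made up 0.601 to 1.21% of tRNA-Tyr, 1.37 to 2.64% of tRNA-Trp and 0 to 0.181% of tRNA-Phe reads. In the sperm libraries the tRF5 of tRNA-Phe had 5 reads or fewer, including 0 in HFD replicate 3, where the 95% Wilson interval reached 0.0608% of tRNA-Phe reads by counting error alone. In TM4 cells the shares were 1.48 to 4.83% for tRNA-Tyr, 0.53 to 0.8% for tRNA-Trp and 0.0692 to 1.57% for tRNA-Phe. Among isoacceptors with at least 100 reads in each library, the median share of tRF5 was 12.5% over 49 isoacceptors in sperm and 1.97% over 50 in TM4 cells. tRNA-Trp stood 30th, tRNA-Tyr 37th and tRNA-Phe 47th from the top in sperm, and tRNA-Tyr 24th, tRNA-Trp 34th and tRNA-Phe 40th in TM4 cells.

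**Figure D2:**
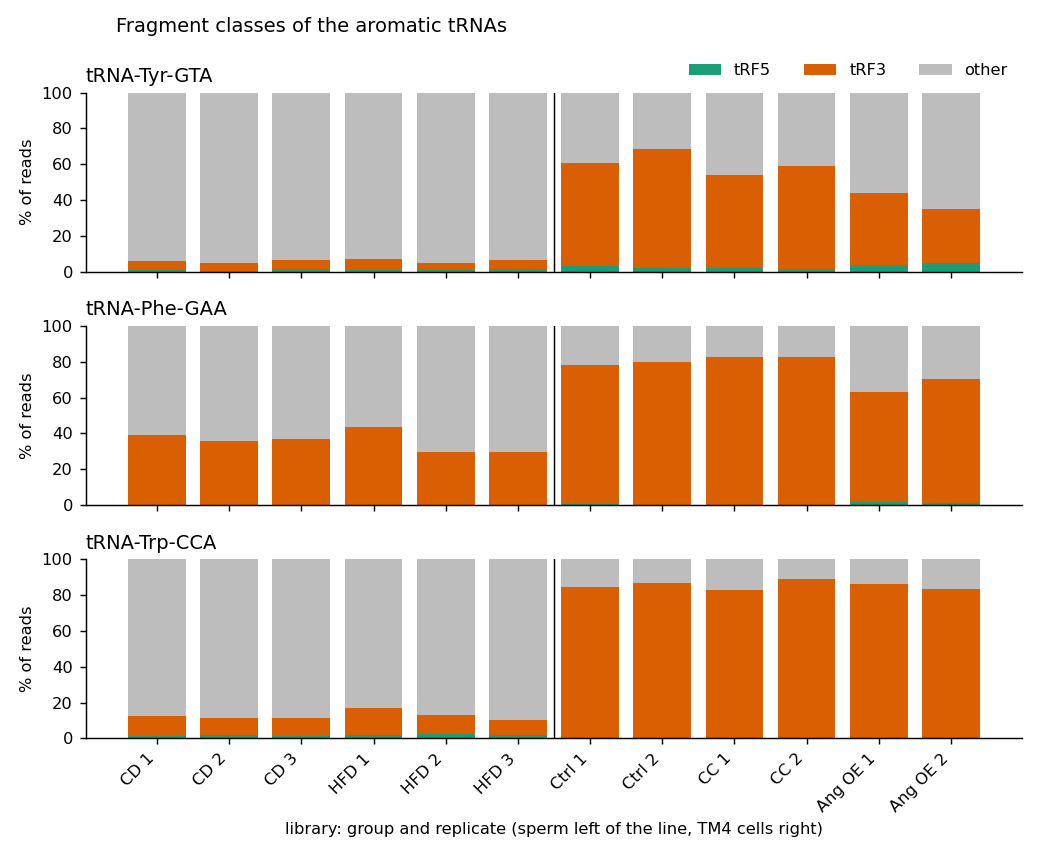
Share of tRF5, tRF3 and other fragments (percent of the reads of each aromatic tRNA) in the 12 libraries. Other fragments fill 93.0 to 95.4% of the tRNA-Tyr bars in sperm, and tRF3 fills 82.5 to 88.4% of the tRNA-Trp bars in TM4 cells.

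Summed over the 3 tRNAs, tRF5 made up 1.14 to 1.75% of aromatic tRNA reads in sperm and 64.6 to 80.2% of the reads of all other tRNAs. The aromatic share was lower in 6 of 6 sperm libraries (mean 1.32% ± 0.233 against 72.7% ± 5.69, SD, n = 6). The aromatic share of tRF3 was higher in 6 of 6 sperm libraries (9.29 to 14.8% against 1.13 to 3.31%), as was that of other fragments (83.9 to 89.2% against 18.6 to 32.9%). In TM4 cells the tRF5 was again lower in 6 of 6 libraries (0.459 to 3.14% against 7.50 to 63.9%) and the tRF3 higher in 6 of 6 (48.5 to 76.8% against 8.20 to 45.6%). For other fragments in TM4 cells the aromatic tRNAs were lower in 4 of 6 libraries, all but those of Ang OE. This comparison was chosen after its values were seen and pools the groups, so no test is given. The same libraries supply both sides, and the sum over all other tRNAs gives abundant isoacceptors more weight.

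**Figure D3:**
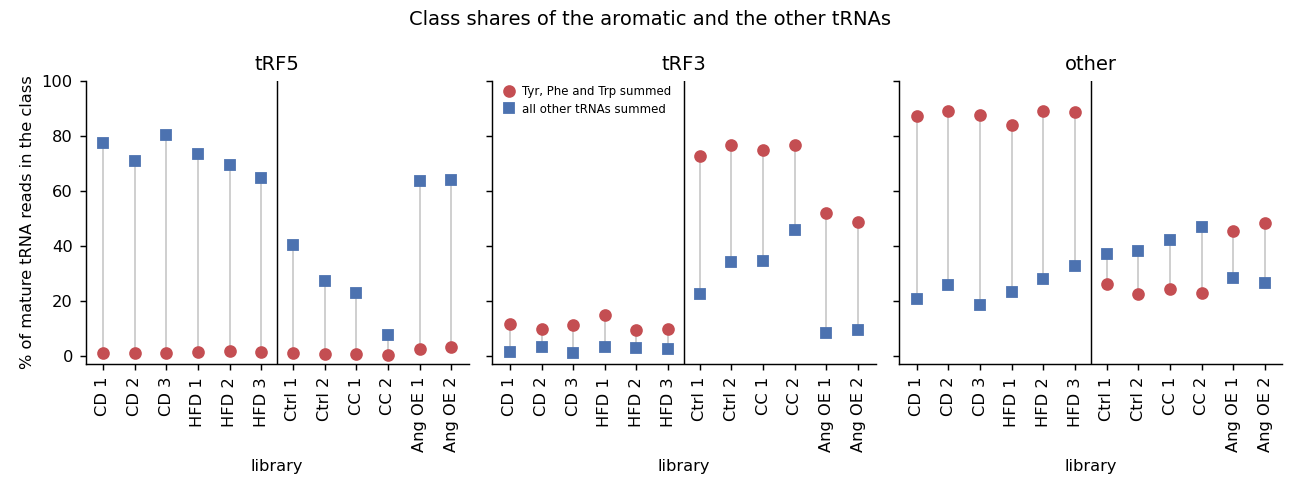
Share of mature tRNA reads in each class (percent) for the 3 aromatic tRNAs summed (circles) and for all other tRNAs summed (squares), in the 12 libraries, with sperm to the left of the line. In the tRF5 panel the circles lie between 0.459 and 3.14% and every square lies above them.

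The CCA tail separated the 3 tRNAs. In TM4 cells, tails were present on 99.5 to 99.9% of tRNA-Tyr, 99.8% or more of tRNA-Phe and 99.7 to 99.9% of tRNA-Trp 3′ end reads. In sperm the values were 74.5 to 91.4% for tRNA-Tyr and 99.0 to 99.7% for tRNA-Phe. For tRNA-Trp in sperm they were 62.98, 52.02 and 60.51% in CD and 54.06, 53.17 and 56.46% in HFD, so that 37.0 to 47.98% of its 3′ end reads lacked the tail. The range for all other tRNAs summed was 38.0 to 67.8% with a tail in sperm and 99.4 to 99.7% in TM4 cells. tRNA-Phe and tRNA-Tyr both lay above the sum of the other tRNAs in all 6 sperm libraries, and tRNA-Trp lay within its range.

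Match to the genome also differed among the tailed reads. All tailed reads of tRNA-Phe matched the genome in all 12 libraries, none of the tailed reads of tRNA-Trp did, and 25.5 to 51.5% of those of tRNA-Tyr did. As the tail is not encoded in tRNA genes, the last 18 bases of each tailed tRNA were searched for in GRCm39 on both strands. The ends are shown with the tail in capitals, because these letters set how each was counted.
tRNA-Tyr-GTA, end shared by 5 genes: atccggctcgaaggaCCA
tRNA-Phe-GAA, end shared by 6 genes: tcccgggtttcggcaCCA
tRNA-Trp-CCA, end shared by 7 genes: atcacgtcggggtcaCCA
The tRNA-Phe end occurred at 1094 places exactly and at 2203 places with up to 1 mismatch. The tRNA-Tyr end occurred at 0 places exactly and 3 with 1 mismatch, and the tRNA-Trp end at 0 places with up to 1 mismatch. Ends of the other genes occurred at up to 2 places exactly and 7 with up to 1 mismatch for tRNA-Tyr, 423 and 2161 for tRNA-Phe, and 0 and 1 for tRNA-Trp. With 22 bases, the most common tRNA-Phe end still occurred at 8 places exactly and 20 with up to 1 mismatch, against 0 for every tRNA-Tyr and tRNA-Trp end. Short tailed reads given to tRNA-Phe are therefore not unique to the tRNA by sequence, and how many came from elsewhere in the genome was not tested. Other fragments of tRNA-Trp matched the genome at 33.7, 45.7 and 33.6% in CD, 16.7, 29.97 and 55.8% in HFD and 69.5 to 84.3% in TM4 cells, whereas those of tRNA-Tyr did at 95.6 to 98.1% in all libraries.

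Reads of tRNA-Phe were divided with tRNA-Ser-GGA. The tRNA-Ser-GGA sequence matches that of tRNA-Phe at 69 of 73 positions, and counted from 1 at the 5′ end the substitutions from tRNA-Phe to tRNA-Ser are C3T, G26A, A35G and C56T. A35G lies in the anticodon. The only tRNA-Ser-GGA gene of RefSeq lies in an intron of Acly on the opposite strand. Totals of tRNA-Phe were whole numbers in 0 of 12 libraries, but the sum of tRNA-Phe and tRNA-Ser-GGA was whole in 12 of 12, in each class (tolerance 0.02 reads). The ratio of tRNA-Ser-GGA to tRNA-Phe reads was 0.138 to 0.154, beside 0.143 for 1 gene against 7. The ratio was 0.142 to 0.165 for tRF3, 0.123 to 0.151 for other fragments and at most 0.0149 for tRF5. Values of tRNA-Trp were whole in 60 of 60 cases and those of tRNA-Tyr in 62 of 73 (tolerance 0.001). For tRF3 and other fragments the 2 tRNAs were therefore not measured apart, while tRNA-Ser-GGA took at most 2.5 tRF5 reads in a library. Each fit for tRNA-Phe was repeated with the tRNA-Ser-GGA reads added.

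**Figure D4:**
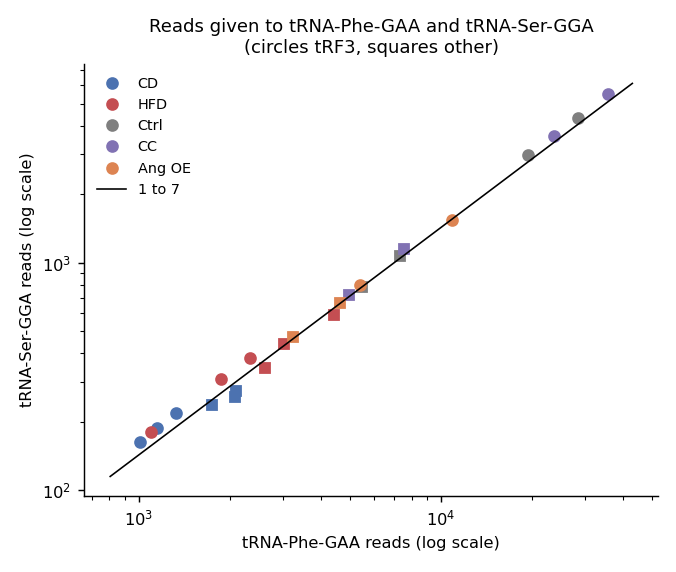
Reads of tRNA-Ser-GGA against reads of tRNA-Phe-GAA in the 12 libraries for tRF3 (circles) and other fragments (squares), both on log axes, with a line at 1 to 7. The points follow the line, with ratios of 0.123 to 0.165.

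Some aromatic tRFs were higher in sperm from HFD than from CD mice by an unadjusted test, and none after adjustment. Of 8 tRFs tested, 4 were called higher and 0 lower (edgeR's quasi-likelihood test, with the raw p below 0.05 and at least a 1.5-fold difference), where 16.2% of the 142 tRFs tested were called higher and 0.0% lower. The tRF5 of tRNA-Phe had too few reads to test. The median log2 fold change was 0.61 over the 8, beside 0.44 over all 142, and all 8 were above 0, as were 91.55% of all tRFs.

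The tRF5 of tRNA-Trp, the strongest of these, stood at 8.01, 15.1 and 7.87 RPM in CD and 13.7, 26.3 and 19.1 RPM in HFD. HFD replicate 1 lay below CD replicate 2, so the groups overlapped. The log2 fold change was 0.93 ± 0.30 (SE, edgeR's quasi-likelihood test, adjusted p = 0.109), the 4th highest of 142. The tRF5 of tRNA-Tyr stood at 4.69, 4.05 and 3.72 RPM in CD and 5.89, 7.99 and 7.50 RPM in HFD, with no overlap (log2 fold change 0.78 ± 0.32, SE, edgeR, adjusted p = 0.26). Its tRF3 stood at 20.8, 28.9 and 16.5 RPM in CD and 40.6, 29.1 and 33.2 RPM in HFD, and CD replicate 2 (28.94) came close to the lowest HFD library (29.14) (log2 fold change 0.64 ± 0.30, SE, edgeR, adjusted p = 0.26). It was called in 8 of 19 settings. With its CCA-tailed reads as a class of their own, these stood at 0.72 and were called, and the rest stood at 0.16 (adjusted p = 0.76) and were not. Other fragments of tRNA-Phe stood at 77.3, 87.9 and 63.1 RPM in CD and 108, 114 and 158 RPM in HFD, with no overlap (log2 fold change 0.74 ± 0.33, SE, edgeR, adjusted p = 0.26).

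The other 4 tRFs were not called, at log2 fold changes of 0.54 (other, tRNA-Tyr), 0.56 (tRF3, tRNA-Phe), 0.58 (tRF3, tRNA-Trp) and 0.44 (other, tRNA-Trp). The tRF3 of tRNA-Trp was called in 4 of 19 settings, among them genome-matched reads alone (0.69). With its CCA-tailed reads as a class of their own, the reads without a tail were called (0.69) and the tailed reads were not (0.49), unlike in tRNA-Tyr. By range, HFD lay above CD without overlap for 4 of the 8 tRFs, beside 26.8% of all tRFs. Of the totals, tRNA-Phe was called higher (log2 fold change 0.67 ± 0.31, SE, edgeR, adjusted p = 0.102), where 42.0% of the 50 isoacceptors tested were. tRNA-Tyr (0.55) and tRNA-Trp (0.46) were not. With all clean reads as the library size, the total of tRNA-Phe stood at 0.55 and lost its call, and 2 of 50 totals were called. rRNA took 24.7, 25.2 and 16.5% of clean reads in CD and 32.9, 30.5 and 24.7% in HFD. With libraries scaled by TMM, by the size factors of DESeq2 or by mature tRNA reads, 0 of the 8 tRFs and 0 of the 3 totals were called, beside 7, 9 and 4 of 142 tRFs and 3, 3 and 2 of 50 totals overall. For the 4 called tRFs the log2 fold changes were then 0.16 to 0.47, 0.25 to 0.57 and 0.60 to 0.87, and for the total of tRNA-Phe 0.12, 0.22 and 0.68, so that they shrank with TMM and DESeq2 but stayed about as large with mature tRNA reads, where the p-values rose. TMM moved the median of all tRFs from 0.44 to -0.06, and other fragments of tRNA-Trp then stood at -0.05. Without CD replicate 2, 7 of 8 tRFs and 3 of 3 totals were called, beside 54 of 142 tRFs and 30 of 50 totals overall. Without CD replicate 1, CD replicate 3 or HFD replicate 3, 2 of 8 aromatic tRFs and 0 totals were called, beside 7, 8 and 16 tRFs and 1, 1 and 9 totals overall. Without HFD replicate 1, 3 of 8 tRFs and 0 totals were called, beside 26 tRFs and 16 totals overall. Without HFD replicate 2, 4 of 8 tRFs and 1 total were called, beside 21 and 5 of all. The tRF5 of tRNA-Tyr (0.69) then lost its call and the tRF3 of tRNA-Phe (0.75) gained one.

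Shares within a tRNA, which do not depend on library size, showed 1 separation between diets. The tRF5 of tRNA-Trp made up 1.46, 1.79 and 1.37% of its reads in CD and 1.94, 2.64 and 1.90% in HFD (mean 1.54% ± 0.225 against 2.16% ± 0.414, SD, n = 3 each, exact permutation test, p = 0.1, the smallest 3 against 3 allow, adjusted p = 0.98 over 147 shares). All HFD libraries lay above all CD libraries, which held for 4.08% of the 49 tRF5 shares tested. With genome-matched reads alone the difference was 2.63 percentage points (exact permutation test, p = 0.4). The other 8 aromatic shares overlapped between diets, where 2.04% of tRF3 shares and 6.12% of other shares lay higher in HFD without overlap. The share of tRF3 in tRNA-Phe, for example, was 37.0% ± 1.68 in CD and 34.2% ± 8.04 in HFD (SD, n = 3 each).

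**Figure D5:**
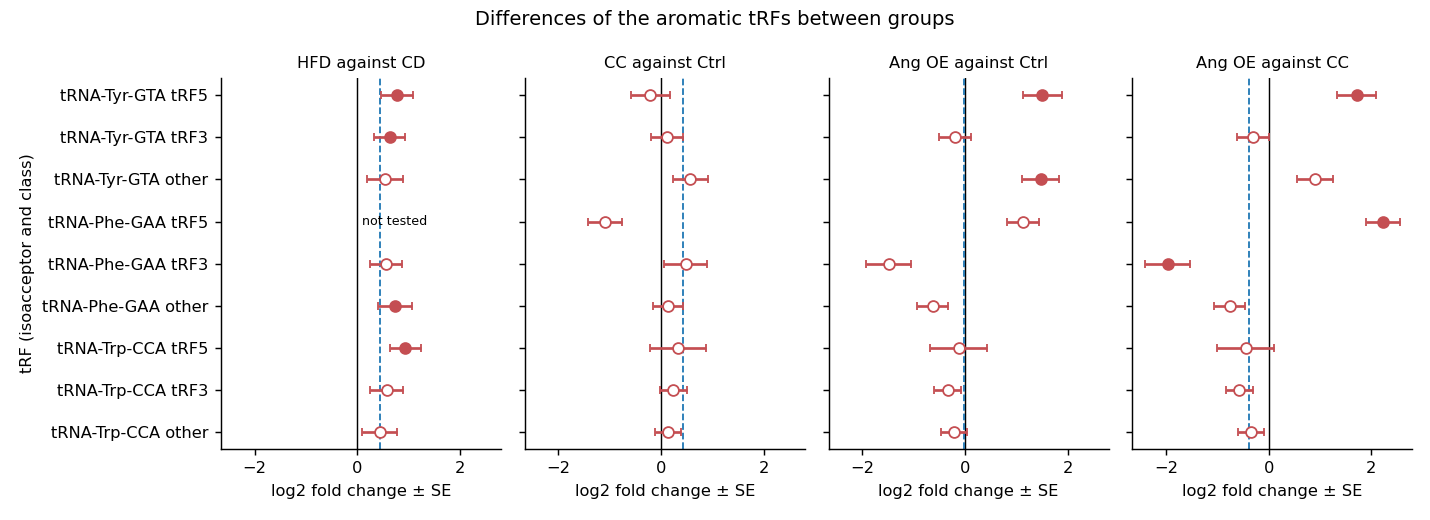
Log2 fold change with standard error of the aromatic tRFs in 4 comparisons (8 tested for HFD against CD, 9 in the others), scaled by clean reads without rRNA. Filled points were called by the rule of the comparison, and the dashed line is the median of all tRFs tested (0.44, 0.43, -0.01 and -0.38 from left to right).

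CC-treated TM4 cells showed no called change in an aromatic tRF. Of 9 tested, 0 were called (edgeR's quasi-likelihood test, with the adjusted p below 0.05 and at least a 2-fold difference), where 0.699% of 143 tRFs were called higher and 0.0% lower. At an unadjusted p under 0.05 there was 1 of the 9, beside 39 of all 143 tRFs. This was the tRF5 of tRNA-Phe, with 1.41 and 1.36 RPM in Ctrl and 0.648 and 0.63 RPM in CC. The groups did not overlap, at 70.5 and 81 reads against 33.5 and 30 reads (log2 fold change -1.09 ± 0.32, SE, edgeR, adjusted p = 0.136). DESeq2 with its own size factors called it (log2 fold change -1.46, adjusted p = 0.00585), as did edgeR after ComBat-seq with the replicate number as an assumed batch (-1.07, adjusted p = 0.0245). Its adjusted p ran from 0.00585 to 0.581 over the alternatives, and its value stayed below 0.

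The median of all tRFs was 0.43 in this comparison and that of the aromatic tRFs 0.14. The tRF3 of tRNA-Phe, the largest aromatic class in these cells, stood at 387 and 478 RPM in Ctrl and 457 and 751 RPM in CC, with overlap (log2 fold change 0.48 ± 0.42, SE, edgeR, adjusted p = 0.425). Each CC library lay above the Ctrl library of the same replicate number. With that number as a block, 0 of 9 aromatic tRFs were called, beside 2 of 143. Totals were called for 0 of 3 (1.96% of 51 higher, 0.0% lower), with log2 fold changes of 0.29 for tRNA-Tyr, 0.41 for tRNA-Phe and 0.22 for tRNA-Trp. The signs of all 3 totals turned with TMM and with the size factors of DESeq2 (-0.25 to -0.04). CC lay without overlap above Ctrl for 1 of 9 tRFs, other fragments of tRNA-Tyr (84.3 and 67.1 RPM against 91.7 and 134 RPM), and below it for 1, the tRF5 of tRNA-Phe, beside 55.9% and 8.39% of all tRFs, and for 0 of the 3 totals, beside 64.7% of isoacceptors higher and 5.88% lower. CC replicate 2 was the higher of the CC libraries for each total.

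With Ang overexpressed, the tRF5 and other fragments of tRNA-Tyr rose and the total of tRNA-Phe fell against Ctrl. Of 9 aromatic tRFs, 2 were called higher and 0 lower, where 4.2% of 143 tRFs were called higher and 5.59% lower by the same rule. The tRF5 of tRNA-Tyr stood at 6.15 and 4.29 RPM in Ctrl and 9.67 and 19.97 RPM in Ang OE, with no overlap (log2 fold change 1.51 ± 0.38, SE, edgeR, adjusted p = 0.0432). Other fragments of tRNA-Tyr stood at 84.3 and 67.1 RPM in Ctrl and 151 and 270 RPM in Ang OE, with no overlap (1.48 ± 0.36, SE, edgeR, adjusted p = 0.0391). Its tRF3 stood at 124 and 143 RPM in Ctrl and 110 and 124 RPM in Ang OE (log2 fold change -0.20 ± 0.32, SE, edgeR, adjusted p = 0.652), so within tRNA-Tyr the share of other fragments was 39.2 and 31.3% in Ctrl and 55.8 and 65.3% in Ang OE. No test was made on shares in TM4 cells.

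Both tRNA-Tyr calls were lost when single libraries were left out. Such a fit leaves 1 library in that group, which is assumed to vary like the other TM4 groups. Without Ang OE replicate 2 the log2 fold changes were 0.89 (adjusted p = 0.159) for tRF5 and 1.00 (adjusted p = 0.0926) for other fragments, and without Ctrl replicate 2 they were 1.27 (adjusted p = 0.173) and 1.32 (adjusted p = 0.187). Without Ctrl replicate 1 the call for other fragments was lost as well (1.65, adjusted p = 0.06). On leaving out a Ctrl library the fold changes thus stayed about as large or rose, and they shrank on leaving out Ang OE replicate 2. With CCA-tailed reads counted as other, tRF5 had an adjusted p of 0.0532 and other fragments stood at 0.64 (adjusted p = 0.206), and neither was called. With mature tRNA reads as the library size they were 0.69 and 0.67 and neither was called, beside a median of -0.78 over all tRFs at that scaling. There 0 aromatic tRFs were called higher and 3 lower, beside 61 of 143 tRFs called. The total of tRNA-Tyr was 0.67 ± 0.32 (SE, edgeR, adjusted p = 0.0717), not called, and turned to -0.14 at that scaling, while with genome-matched reads alone it was called higher (1.06, adjusted p = 0.0091).

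For tRNA-Phe, the total fell from 498 and 601 RPM in Ctrl to 177 and 288 RPM in Ang OE with no overlap (log2 fold change -1.24 ± 0.37, SE, edgeR, adjusted p = 0.00415). Without overlap, 39.2% of isoacceptors were higher and 41.2% lower. The total of tRNA-Phe was 1 of 3 aromatic totals called, with 13.7% of 51 isoacceptors called higher and 15.7% lower. With 1 library left in a group, the call was lost without Ctrl replicate 2 (-1.10, adjusted p = 0.15) and without Ang OE replicate 1 (-0.93, adjusted p = 0.167). Its tRF3 stood at 387 and 478 RPM in Ctrl and 109 and 200 RPM in Ang OE and did not pass (-1.49 ± 0.43, SE, edgeR, adjusted p = 0.0701), and its tRF5 at 1.41 and 1.36 RPM in Ctrl and 2.79 and 3.26 RPM in Ang OE did not either (1.13 ± 0.31, SE, edgeR, adjusted p = 0.0577). Neither overlapped between the groups, as held for 35.7% of all tRFs higher and 42.0% lower. Both were called by DESeq2 with the same library sizes (adjusted p = 0.00251 and 0.0331) and with TMM (adjusted p = 0.0474 and 0.039). With mature tRNA reads as the library size, the tRF3 was called lower (-2.33, adjusted p = 0.00319) and the tRF5 stood at 0.35 (adjusted p = 0.411). Other fragments of tRNA-Phe stood at 109 and 122 RPM in Ctrl and 65.2 and 85.2 RPM in Ang OE (-0.62 ± 0.30, SE, edgeR, adjusted p = 0.165), and were called at that scaling (-1.42, adjusted p = 0.00652). No call was made for tRNA-Trp, whose 3 classes had log2 fold changes of -0.12 to -0.33, but at that scaling its tRF3 (-1.11, adjusted p = 0.0134) and its total (-1.09, adjusted p = 0.00123) were called lower.

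Against CC cells, Ang OE cells had higher tRF5 of tRNA-Phe and tRNA-Tyr and lower tRF3 of tRNA-Phe. This comparison shares its Ang OE libraries with the one against Ctrl, so it is no separate evidence. Of 9 tRFs, 2 were called higher and 1 lower, where 11.2% of 143 tRFs were called higher and 27.3% lower by that rule. The tRF5 of tRNA-Phe had 33.5 and 30 reads in CC and 138 and 177.5 reads in Ang OE (log2 fold change 2.23 ± 0.32, SE, edgeR, adjusted p = 0.00288), the 8th highest value of 143. The tRF5 of tRNA-Tyr stood at 4.25 and 4.79 RPM in CC and 9.67 and 19.97 RPM in Ang OE (1.71 ± 0.38, SE, edgeR, adjusted p = 0.0108). The tRF3 of tRNA-Phe stood at 457 and 751 RPM in CC and 109 and 200 RPM in Ang OE (-1.97 ± 0.44, SE, edgeR, adjusted p = 0.0108). With mature tRNA reads as the library size, the tRF5 of tRNA-Tyr lost its call (0.99, adjusted p = 0.0158, under the 2-fold difference), and 84 of 143 tRFs were called. None of the 3 overlapped between groups, beside 24.5% of tRFs higher and 55.2% lower without overlap.

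Nearly all tRF3 reads of tRNA-Phe carried the tail. With the CCA-tailed reads as a class of their own, they had in that comparison a log2 fold change of -1.97 (adjusted p = 0.0119), and the tRF3 without a tail, with 10.9 to 23.7 reads a library in TM4 cells, one of -0.51 (adjusted p = 0.354). The total of tRNA-Phe fell (-1.65 ± 0.37, SE, edgeR, adjusted p = 6.52e-05), as 1 of 3 aromatic totals, beside 29.4% of 51 isoacceptors called lower and 13.7% higher. Its call was kept in each of the 19 settings run. Both it and the total of tRNA-Trp lay lower in Ang OE without overlap, beside 54.9% of isoacceptors lower and 19.6% higher. The total of tRNA-Trp had a log2 fold change of -0.54 (adjusted p = 0.0403) and missed the 2-fold difference. With the tRNA-Ser-GGA reads added to tRNA-Phe, the tRNA-Phe total stood at 0.68 for HFD against CD, 0.42 for CC against Ctrl, -1.25 for Ang OE against Ctrl and -1.67 for Ang OE against CC, and the number of aromatic tRFs and totals called did not change in any of the 4 comparisons.

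Neighbouring lists of tRNAs were set beside the aromatic ones. The other tRNAs that carry queuosine, tRNA-His-GTG, tRNA-Asp-GTC and tRNA-Asn-GTT, had 1 of 8 tRFs called higher for HFD against CD, 0 of 9 called for CC against Ctrl, 1 of 9 called lower for Ang OE against Ctrl, and 2 of 9 called higher and 3 lower for Ang OE against CC. The other intron-bearing tRNAs, tRNA-Leu-CAA, tRNA-Ile-TAT and tRNA-Arg-TCT, had 1 of 8 called higher for HFD against CD, 0 of 8 for CC against Ctrl, 1 higher and 1 lower of 8 for Ang OE against Ctrl, and 1 higher and 3 lower of 8 for Ang OE against CC. The median log2 fold changes of the queuosine, intron-bearing and aromatic tRFs were 0.33, 0.44 and 0.61 for HFD against CD (0.44 over all tRFs), -0.0012, 0.35 and 0.14 for CC against Ctrl (0.43), -0.07, -0.28 and -0.20 for Ang OE against Ctrl (-0.01), and -0.83, -0.74 and -0.34 for Ang OE against CC (-0.38). Over all tRFs, 16.2% were called higher for HFD against CD, 0.699% for CC against Ctrl, 4.2% for Ang OE against Ctrl and 11.2% for Ang OE against CC, and 0.0, 0.0, 5.59 and 27.3% lower.

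Precursors with an intron were listed for tRNA-Tyr and for none of the other aromatic tRNAs. In sperm, tRNA-Tyr precursors had 40, 47 and 26 reads in CD and 42, 42 and 50 reads in HFD, equal to 0.226 to 0.33% of the mature reads. TM4 cells had 1012 and 1011 reads in Ctrl, 913 and 778 in CC and 647 and 782 in Ang OE. Relative to mature tRNA-Tyr reads that was 9.40 and 7.90% in Ctrl, 8.85 and 5.04% in CC and 4.81 and 3.47% in Ang OE. In RPM the Ang OE libraries (13.1 and 14.3) lay below the Ctrl libraries (20.2 and 16.96) and the CC libraries (17.7 and 16.3). Precursors of tRNA-Arg-TCT (9.22 and 9.26 RPM in Ang OE, 15.8 and 17.1 RPM in Ctrl) also lay below Ctrl without overlap. So did those of tRNA-Leu-CAA (1.60 and 1.63 RPM in Ang OE, 1.96 and 3.10 RPM in Ctrl), but both overlapped with CC. Those of tRNA-Ile-TAT (1.33 and 1.49 RPM in Ang OE) overlapped with Ctrl (1.19 and 1.66 RPM) and lay above CC (0.696 and 0.84 RPM). No test was made on these rows.

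Mitochondria encode their own tRNAs for the same amino acids. Mitochondrial tRNA-Trp-TCA was the most abundant of these, at 141, 197 and 133 RPM in CD, 269, 202 and 271 RPM in HFD, 187 and 173 RPM in Ctrl, 188 and 132 RPM in CC and 91.3 and 77.4 RPM in Ang OE. HFD lay above CD and Ang OE below Ctrl and CC without overlap, with no test made. Among the totals of cytosolic isoacceptors, 15 of 50 lay higher in HFD, 21 of 51 lower in Ang OE than in Ctrl and 28 of 51 lower than in CC in the same way. Mitochondrial tRNA-Tyr (2.99 to 12.1 RPM) and tRNA-Phe (3.04 to 12.999 RPM) were scarce. Mitochondrial tRNA-Tyr also lay higher in HFD (7.77 to 12.1 RPM) than in CD (6.02 to 6.83 RPM), whereas its TM4 groups overlapped. Mitochondrial tRNA-Phe lay lower in Ang OE (3.04 and 3.07 RPM) than in Ctrl (5.57 and 7.11 RPM) and CC (4.87 and 7.12 RPM), and the diets overlapped. The tRF3 made up 92.4 to 95.3% of mitochondrial tRNA-Trp reads in TM4 cells and 33.8 to 45.9% in sperm. Mitochondrial tRNA-Tyr had 75.4 and 61.6% of its reads as tRF5 in Ctrl, 50.6 and 28.8% in CC and 80.4 and 78.1% in Ang OE.

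Among 48 other isoacceptors, the profile of tRNA-Phe over the 12 libraries was closest to that of tRNA-Ser-GGA (root mean square distance 0.04 of centred log2(RPM + 1)), with which it shares reads, then to tRNA-Gly-TCC (0.30) and tRNA-Ala-CGC (0.56), where the median distance was 1.46. tRNA-Tyr was closest to the 3 proline tRNAs, tRNA-Pro-CGG (0.23), tRNA-Pro-AGG (0.24) and tRNA-Pro-TGG (0.25), with a median of 1.02. tRNA-Trp was closest to tRNA-Leu-TAA (0.30), tRNA-Leu-CAG (0.33) and tRNA-Ser-TGA (0.44), with a median of 1.33. Sperm and TM4 libraries entered together, so the gap between them counts in these distances.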

How the data were processed

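Small RNA libraries were made with a TruSeq small RNA kit and size selection. The authors trimmed reads, kept those of 15 to 45 bases and annotated them with SPORTS1.1, allowing 1 mismatch and matching rRNA first, then tRNAs and other databases. The submitters' processing notes name FastQC 0.12.0, Trimmomatic 0.40 and the mm10 build. The tables the authors deposited hold estimated counts per annotation, divided among annotations where a read matched several. Modified bases or blocked ends can keep a fragment out of such libraries, which these counts cannot show.

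Genome-matched and unmatched reads were summed per class, rounded and fitted with edgeR 4.0.16 (R 4.3.3, quasi-likelihood test), separately for sperm and TM4 cells, with clean reads minus rRNA as library size and Benjamini-Hochberg adjustment over all tRFs or all isoacceptors. A feature needed 10 reads in 3 sperm or 2 TM4 libraries. Calls were made in sperm on a raw p below 0.05 with a 1.5-fold difference, and in TM4 cells on an adjusted p below 0.05 with a 2-fold difference. DESeq2 1.42.0, other scalings, filters and classes, ComBat-seq (sva 3.50.0) and omission of each library were alternatives. As the study's methods name no batches, ComBat-seq took the replicate number as the batch, an assumption that no label gives. Shares were compared by exact permutation (scipy 1.17.1, Python 3.11.15) where an isoacceptor had 100 reads in each library. The comparison of aromatic with other tRNAs and the addition of tRNA-Ser-GGA were chosen after seeing the data. On simulated counts with 30 tRFs changed by 2 on the log2 scale, more than any change reported for sperm, the fit recovered 100% for HFD against CD (142 tRFs, 2 false calls) and 93.3% for CC against Ctrl (140 tRFs). The counts were drawn independently for each tRF, with a fixed dispersion and no shift shared by all tRFs. They therefore do not give the rate of false calls or of missed changes in the real data.

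All 9 aromatic tRFs were named, and the members and lists were chosen with earlier results of these data known. Replicate libraries differed beyond sampling noise (chi-square per degree of freedom 301 to 2427), so none was counted as a duplicate. Intervals cover counting error only. tRNA genes and ends were searched for in GRCm39, annotated with GENCODE vM39, and gene numbers came from RefSeq GRCm38.p6. No coordinates were carried between builds.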

Additional observations from a re-analysis of the deposited data

How the results depend on the processing

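Of 880 tests of aromatic members under alternatives, 746 kept their direction and side of the threshold, 48 lost a call, 45 gained one and 41 turned direction. Of 63 differences in class shares between diets, 60 moved by less than the spread between replicates. Where a value changed, the cause was not tested unless named.

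For HFD against CD, 4 called tRFs became 0 with TMM, 0 with DESeq2 size factors and 0 with reads matched to mature tRNAs (over all 142 tRFs, 23 became 7, 9 and 4), and 2 to 7 on leaving out single libraries. The 1 called total, tRNA-Phe (0.67), became 0 with TMM (0.12), DESeq2 size factors (0.22), all clean reads (0.55) or reads matched to mature tRNAs (0.68), where 21 of all 50 became 3, 3, 2 and 2, and 0 to 3 without single libraries. For CC against Ctrl, 0 called tRFs became 1 with DESeq2 size factors and 1 after ComBat-seq (1 of all 143 became 6 and 13). For Ang OE against Ctrl, 2 called tRFs became 4 with DESeq2 at the same library sizes, TMM, DESeq2 size factors, the compared groups alone or ComBat-seq (14 of all became 27, 24, 31, 30 and 34), 0 with CCA-tailed reads counted as other (5 of 125), and 0 to 4 without single libraries. The 1 called total became 2 with reads matched to mature tRNAs or, through tRNA-Tyr, genome-matched reads alone (15 of all 51 became 22 and 17), and 0 to 1 without single libraries. For Ang OE against CC, 3 called tRFs became 5 and 1 called total became 2 with reads matched to mature tRNAs, where 1 tRF was higher, 4 were lower and the tRF5 of tRNA-Tyr lost its call (55 of all 143 tRFs became 84 and 22 of all 51 totals 27), and the tRFs 3 to 4 without single libraries.

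Directions turned mostly for CC against Ctrl. TMM and DESeq2 size factors gave log2 fold changes of -0.27 and -0.30 for tRF3 of tRNA-Tyr, -0.24 and -0.27 for other fragments of tRNA-Phe, -0.0481 and -0.084 for tRF5, -0.13 and -0.16 for tRF3 and -0.21 and -0.23 for other fragments of tRNA-Trp, and -0.20 and -0.17, -0.0709 and -0.0429, and -0.25 and -0.22 for the totals of tRNA-Tyr, tRNA-Phe and tRNA-Trp. Without single libraries the values ran from -0.444 to 0.0743 (tRF5, tRNA-Tyr), -0.371 to 0.473 (tRF3, tRNA-Tyr), -0.275 to 0.456 (other, tRNA-Phe), -0.327 to 0.786 and -0.143 to 0.539 (tRF5 and tRF3, tRNA-Trp), and -0.107 to 0.594 and -0.0971 to 0.486 (totals of tRNA-Tyr and tRNA-Trp), each low end but the first without CC replicate 2. The tRF3 of tRNA-Tyr was -0.0103 with reads matched to mature tRNAs. For HFD against CD, TMM gave -0.0531 for other fragments and -0.0919 for the total of tRNA-Trp, and DESeq2 size factors -0.0047 for that total. For Ang OE against Ctrl, the tRF3 of tRNA-Tyr was 1.36 with CCA-tailed reads as a class of their own and 1.35 with them as other, where only the few reads without a tail remain in it, the tRF5 of tRNA-Trp ran from -0.47 to 0.146 without single libraries, and the total of tRNA-Tyr was -0.14 with reads matched to mature tRNAs. For Ang OE against CC, the tRF3 of tRNA-Tyr was 0.14 (TMM), 0.16 (DESeq2 size factors), 0.94 (CCA-tailed reads as a class of their own), 0.94 (as other) and -0.669 to 0.176 without single libraries. The tRF5 of tRNA-Trp was 0.0005 (DESeq2 size factors) and -0.909 to 0.204 without single libraries, its other fragments 0.0641 (TMM) and 0.0628 (DESeq2 size factors), and the total of tRNA-Tyr -0.31 with reads matched to mature tRNAs.

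With the replicate number as a block, 3, 0, 3 and 3 tRFs and 1, 0, 1 and 1 totals were called for HFD against CD, CC against Ctrl, Ang OE against Ctrl and Ang OE against CC, beside 28, 2, 18 and 55 of all tRFs and 16, 2, 16 and 21 of all totals. The block lost the tRF3 of tRNA-Tyr (0.66) and the total of tRNA-Phe (0.67) and gained the total of tRNA-Tyr (0.61) for HFD against CD, and for Ang OE against Ctrl it lost the tRF5 of tRNA-Tyr (1.45, adjusted p = 0.0723) and gained the tRF5 (1.13, adjusted p = 0.0499) and tRF3 (-1.55, adjusted p = 0.0298) of tRNA-Phe. Same-numbered libraries deviated together with correlations of -0.02, 0.21 and 0.18 in sperm, 0.77 between Ctrl and CC, -0.22 between Ctrl and Ang OE and -0.27 between CC and Ang OE. With 2 libraries a group, each TM4 value is a single contrast that turns sign for differently numbered libraries. The numbers were not taken to pair the libraries. Whether Ctrl and CC libraries of the same number shared a batch was not tested, so a pairing of these groups stays possible. In sperm, the tRF5 of tRNA-Phe was too scarce to test, and 3 libraries a group allow no exact p under 0.1.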
